A study of Mus musculus with 6 samples.

Results

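The canonical Polycomb repressive complex 1 (PRC1) genes examined here are Cbx2, Cbx6, Cbx7 and Cbx8 and Phc1, Phc2 and Phc3. For each, the probe set that names no other gene was taken, and where a gene has several, the brightest on average over all 6 arrays. This gave a value for 6 of the 7 genes, out of 19938 genes with a probe set of their own on the array. Cbx6 has no such probe set, since the only one that names it is shared with Npcd and Nptxr.
Neurospheres, free-floating spheres of neural stem/progenitor cells, were grown from lateral ventricle wall tissue of CD1 mice, an outbred strain, aged 4 to 6 weeks. The tested cells carried the pCMMP-Bmi1 retroviral vector, which makes Bmi1 and eGFP from 1 bicistronic transcript, and the control cells carried the same vector without Bmi1. All cells were sorted on eGFP and grown at clonal density, with 2000 cells per well. RNA of 3 independent cultures with Bmi1 overexpression and 3 with empty vector was hybridised to whole-transcript expression arrays (Mouse Gene ST 1.0, Affymetrix), 1 culture per array, and whether the cultures came from separate mice is not stated. The sample labels name the Bmi1 vector without a tag, and the paper describes the arrays as made with Bmi1-FLAG. On all 6 arrays the source name given in the labels is that of the other group, and groups were taken from the titles, with which the transduction and genotype fields agree on every array.

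In PRC1 a Ring protein, which places ubiquitin on histone H2A, is paired with a Pcgf protein such as BMI-1. The canonical form of the complex adds a Cbx protein, whose chromodomain binds histone H3 trimethylated at lysine 27, and a Phc protein, whose SAM domain lets complexes join into chains and compact chromatin. The Cbx proteins replace each other within the complex. CBX7 is known as the main Cbx subunit of mouse embryonic stem cells, in which CBX2 and CBX8 take over upon differentiation. Mammalian Polycomb complexes are known to sit at CpG-rich promoters, and the CpG content of the members' own promoters is shown for the 3 genes whose arrays did not overlap between the groups. The windows hold 250 bases before and 50 after a RefSeq transcription start (GRCm38.p6), written 5′ to 3′ on the strand of the gene, with each CpG in capitals.
Phc1, chr6:122340178-122340477, minus strand: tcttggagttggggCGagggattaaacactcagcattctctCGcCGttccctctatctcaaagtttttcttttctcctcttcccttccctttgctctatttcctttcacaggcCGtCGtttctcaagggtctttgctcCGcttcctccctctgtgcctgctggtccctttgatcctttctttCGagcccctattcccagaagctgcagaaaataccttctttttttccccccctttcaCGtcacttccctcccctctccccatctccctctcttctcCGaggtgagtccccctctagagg
Cbx7, chr15:79932597-79932896, minus strand: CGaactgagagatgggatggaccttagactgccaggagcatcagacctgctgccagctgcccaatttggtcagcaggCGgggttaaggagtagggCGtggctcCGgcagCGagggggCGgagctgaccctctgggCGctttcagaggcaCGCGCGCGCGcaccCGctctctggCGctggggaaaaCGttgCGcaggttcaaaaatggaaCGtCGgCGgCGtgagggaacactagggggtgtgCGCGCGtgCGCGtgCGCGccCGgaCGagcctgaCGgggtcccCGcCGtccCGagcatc
Phc3, chr3:30969366-30969665, minus strand: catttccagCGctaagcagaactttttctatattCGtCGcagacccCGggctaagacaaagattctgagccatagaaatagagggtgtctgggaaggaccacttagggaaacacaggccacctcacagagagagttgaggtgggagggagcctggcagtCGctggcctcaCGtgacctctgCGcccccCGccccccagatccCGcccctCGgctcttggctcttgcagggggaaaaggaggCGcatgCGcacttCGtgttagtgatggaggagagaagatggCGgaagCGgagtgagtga
The Phc1 window held 9 CpG and the Phc3 window 15, against a median of 7 over all 32851 windows of the table, and 45.8% and 34.6% of all windows held as many or more. The Cbx7 window was richer, with 33 CpG, a number reached by 8.56% of windows. The other matched genes were Cbx6 with 31 CpG, Cbx8 with 24 and Phc2, whose 3 starts held 19, 2 and 45. Cbx2 had no entry. The letters CACGTG (an E-box, the same on either strand) were chosen after the windows were seen. They occurred once each in the windows of Cbx6, Cbx8 and Phc3 and at 1 of the 3 Phc2 starts, against 7.15% of all windows, and the windows of Phc1 and Cbx7 did not hold them. The consensus of NRF1, chosen in the same way and searched on both strands, was found in the Phc3 window, against 0.971% of all windows. These matches describe the letters only.

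The values are robust multi-array average (RMA) levels on the log2 scale, made by the authors, and differences are Bmi1 overexpression minus empty vector. Levels of different probe sets depend on their probes, so a higher level at 1 probe set than at another does not show more RNA. Array medians lay between 4.37 and 4.45, and each of the 6 members lay above the median of its array on all 6 arrays. Cbx7 was the dimmest, 0.57 above the median at its lowest, and the next was Phc2, 1.97 above at its lowest. "Passed the test" means an adjusted p under 0.05 from limma, adjusted over all 35557 probe sets by the Benjamini-Hochberg method. The targeted gene Bmi1 read 9.18, 8.36 and 8.42 with the Bmi1 vector, against 7.70, 8.40 and 8.31 with the empty vector. Its groups overlapped, and the log2 difference of 0.52 (95% confidence interval -0.16 to 1.19) did not pass (adjusted p = 0.38 from limma). Which part of the Bmi1 transcript its probes read was not tested. Cdkn2a, a known BMI-1 target, fell, with a difference of -1.08 in log2 units (adjusted p = 0.0012 from limma), and Epha7 fell by 3.82 (adjusted p = 1.1e-04 from limma). Of the marker lists, 2 of 11 stem and progenitor markers rose and 0 fell (Prom1 by 1.58 and Hes5 by 1.05). Of 8 neuron markers 2 rose and 1 fell, of 6 astrocyte markers 2 rose and 0 fell, and of 8 pericyte and fibroblast markers 0 rose and 1 fell. No oligodendrocyte (7 genes), microglial (8), endothelial (6) or ependymal (5) marker passed by limma, with 2, 0, 1 and 1 of them at an unadjusted p under 0.05. Over all arrays the stem and progenitor markers took values from 3.75 (Prom1, with the empty vector) to 12.32, and the microglial markers from 2.38 to 4.42. These ranges come from different probe sets and do not rank the cell types. Fewer cells of a type and less RNA per cell cannot be told apart in such samples.

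No Cbx or Phc gene passed the test in Bmi1-overexpressing neurospheres. Of the 6 members measured, 0 rose and 0 fell by limma, where 5.70% of all probe sets passed, 2.23% higher and 3.46% lower with Bmi1. The methods' t-test with Benjamini-Hochberg adjustment also called 0, and 3 of the 6 had an unadjusted p under 0.05 by limma and by the methods' t-test, against 19.9% of all probe sets by limma. These 3 were Phc1 and Cbx7, higher with Bmi1, and Phc3, lower with Bmi1, and they are the members whose groups did not overlap, against 26.6% of all probe sets. With 1 probe set per gene, as for the members, 4526 of 19938 genes had an unadjusted p under 0.05 by limma. The groups of 6238 of these genes did not overlap. The further probe set of Phc3 had the opposite sign, with a log2 difference of 0.11, and its groups overlapped. The differences of all 6 were small, from -0.21 to 0.26, and their median absolute difference of 0.14 stood beside 0.12 over all probe sets. The 95% confidence intervals reached from 0.762-fold at the lowest (Phc3) to 1.38-fold at the highest (Phc1). With the standard errors of these probe sets, 0.066 to 0.083, a difference of 0.31 to 0.39 on the log2 scale, or 1.24-fold to 1.31-fold, would have been needed to pass.

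**Figure D1:**
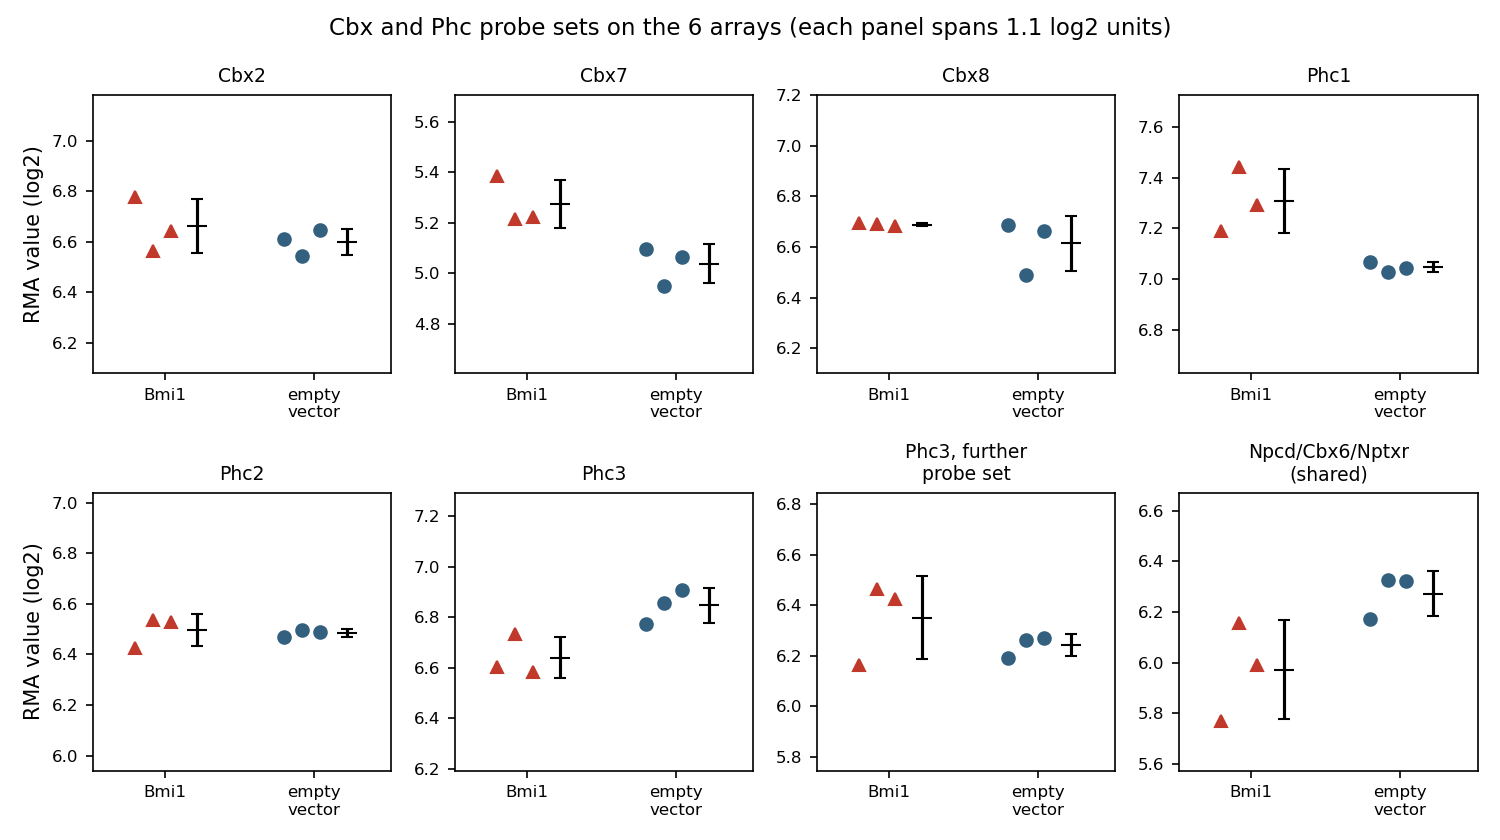
RMA values on the log2 scale (y axis) of the 6 members, the further probe set of Phc3 and the probe set shared by Npcd, Cbx6 and Nptxr, with 1 point per array, triangles for Bmi1 overexpression and circles for empty vector, with bars that give the group mean with its SD (n = 3). The triangles of Phc1 and Cbx7 all lie above the circles, by gaps of 0.12 each, and those of Phc3 all lie below, by a gap of 0.04.

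Among the Cbx genes, which supply the subunit that reads the histone mark, Cbx7 differed most. Cbx7 (probe set 10430649) read 5.38, 5.21 and 5.22 with Bmi1, against 5.10, 4.95 and 5.06 with the empty vector. All 3 Bmi1 arrays lay above all 3 empty vector arrays, with a gap of 0.12 between the nearest arrays. The mean was 5.27 ± 0.10 with Bmi1 and 5.04 ± 0.08 with the empty vector (SD, n = 3 each). The log2 difference was 0.24 (95% confidence interval 0.04 to 0.43), or 1.18-fold, and did not pass (adjusted p = 0.18 from limma).
Cbx2 and Cbx8, which neighbour each other on chromosome 11 with 0 protein-coding genes between them in the RefSeq table, overlapped between the groups. Cbx2 (probe set 10383055) read 6.78, 6.56 and 6.64 with Bmi1, against 6.61, 6.55 and 6.64 with the empty vector. Its log2 difference was 0.06 (95% confidence interval -0.13 to 0.25, adjusted p = 0.74 from limma). Cbx8 (probe set 10393614) read 6.69, 6.69 and 6.68 with Bmi1, against 6.69, 6.49 and 6.66 with the empty vector. The Bmi1 arrays differed little among themselves, and empty vector replicate 2 was the lowest of the 6. The log2 difference of Cbx8 was 0.07 (95% confidence interval -0.11 to 0.26, adjusted p = 0.67 from limma). For both genes the upper bound was a 1.19-fold to 1.20-fold higher level with Bmi1.
The probe set shared by Npcd, Cbx6 and Nptxr (10430626) read 5.77, 6.16 and 5.99 with Bmi1, against 6.17, 6.32 and 6.32 with the empty vector. The Bmi1 arrays lay below the empty vector arrays by a gap of 0.01 at the nearest, and the log2 difference of -0.30 (95% confidence interval -0.58 to -0.02) did not pass (adjusted p = 0.21 from limma). Its value cannot be assigned to Cbx6: Nptxr encodes a neuronal pentraxin receptor, and in the RefSeq table Npcd spans Cbx6 and Nptxr.

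Among the Phc genes, which supply the subunit that lets complexes join, Phc1 and Phc3 differed in opposite directions. Phc1 (probe set 10547597) read 7.19, 7.44 and 7.29 with Bmi1, against 7.07, 7.03 and 7.04 with the empty vector. All 3 Bmi1 arrays were higher, and they were spread more widely than the empty vector arrays, with means of 7.31 ± 0.13 with Bmi1 and 7.05 ± 0.02 with the empty vector (SD, n = 3 each). The log2 difference was 0.26 (95% confidence interval 0.06 to 0.46), or 1.20-fold, and did not pass (adjusted p = 0.15 from limma). It passed when probe sets with a mean under 5 were left out of the fit (adjusted p = 0.043 from limma), and in the other 13 alternatives it did not.
Phc2 (probe set 10508351) read 6.43, 6.54 and 6.53 with Bmi1, against 6.47, 6.50 and 6.49 with the empty vector. The empty vector arrays lay within the range of the Bmi1 arrays. The log2 difference was 0.01 (95% confidence interval -0.15 to 0.17, adjusted p = 0.94 from limma), the narrowest interval of the 6, and its sign turned under 3 of 14 alternatives. Not all of the 14 could change the difference.
Phc3 (probe set 10497648) read 6.60, 6.73 and 6.58 with Bmi1, against 6.77, 6.86 and 6.91 with the empty vector. Each Bmi1 array lay below each empty vector array, by a gap of 0.04 at the nearest. The mean was 6.64 ± 0.08 with Bmi1 and 6.85 ± 0.07 with the empty vector (SD, n = 3 each), a log2 difference of -0.21 (95% confidence interval -0.39 to -0.02), or 0.866-fold. It did not pass (adjusted p = 0.20 from limma). Phc3 has a further probe set of its own (10497646), which read 6.16, 6.47 and 6.42 with Bmi1, against 6.19, 6.26 and 6.27 with the empty vector. Its groups overlapped and its log2 difference was 0.11 (95% confidence interval -0.13 to 0.35, adjusted p = 0.62 from limma), the opposite sign. The average of its 2 probe sets differed by -0.05. Within an array, the brighter probe set exceeded the further one by 0.44, 0.27 and 0.16 with Bmi1, against 0.58, 0.59 and 0.64 with the empty vector. The groups did not overlap in this comparison, which was chosen after the values were seen (difference of -0.32, p = 0.1 by a two-sided exact permutation test, which with 3 arrays a group can go no lower). The direction of Phc3 therefore rests on the probe set chosen, and which transcripts each reads was not tested.

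The array with the highest Bmi1 value, Bmi1 replicate 1 at 9.18, was the highest of the 6 for Cbx2 (6.78), Cbx7 (5.38) and, by less than 0.01, Cbx8 (6.69). For Phc1 it was the lowest of the 3 Bmi1 arrays (7.19), for Phc2 the lowest of all 6 (6.43), and for Phc3 the middle of the 3 Bmi1 arrays (6.60). Without this array the log2 differences were 0.00 for Cbx2, 0.18 for Cbx7, 0.07 for Cbx8, 0.32 for Phc1, 0.05 for Phc2 and -0.19 for Phc3, and none of the 6 passed. The difference of Cbx2 thus rested on Bmi1 replicate 1.

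The balance between members was compared by the log2 ratio of 2 members within an array, which a scaling of the whole array cannot move. Of the 15 pairs of the 6 genes, 8 had ratios that did not overlap between the groups, against 33.8% of all pairs of genes on the array. The pairs share members, and Phc3 and Cbx7 each took part in 4 of the 8. With the further probe set of Phc3 the number was 4, and Phc3 took part in 0 of them. With the brighter Phc3 probe set, the widest shift was that of Phc1 over Phc3, which read 0.59, 0.71 and 0.71 with Bmi1, against 0.29, 0.17 and 0.14 with the empty vector. All 3 Bmi1 ratios were higher, with a difference of 0.47. With the further Phc3 probe set this difference was 0.15 and the groups overlapped. Cbx7 over Phc3 followed with a difference of 0.44, from ratios of -1.22, -1.52 and -1.36 with Bmi1, against -1.68, -1.91 and -1.84 with the empty vector. With the further Phc3 probe set it was 0.13, again with overlap, and the differences of Cbx2, Cbx8 and Phc2 over Phc3 turned from above 0 to -0.05, -0.03 and -0.10.
Within the Cbx genes, Cbx7 over Cbx8 averaged -1.42 ± 0.09 with Bmi1, against -1.58 ± 0.03 with the empty vector (SD, n = 3 each), a difference of 0.16. Cbx2 over Cbx7 averaged 1.39 ± 0.03 with Bmi1, against 1.56 ± 0.04 with the empty vector (SD, n = 3 each), a difference of -0.18. In these 2 pairs the groups did not overlap, while the ratio of the neighbours Cbx2 and Cbx8 differed by -0.01 and overlapped. Within the Phc genes, Phc1 over Phc2 had a difference of 0.25 and Phc2 over the brighter Phc3 probe set of 0.22, again without overlap. The ratio of Phc1 to Cbx7, the members that were higher with Bmi1, overlapped (Cbx7 over Phc1, difference of -0.03). An exact permutation test, two-sided, gave p = 0.1 for each of the 8 pairs, which is 0.19 after adjustment over the 15 pairs, so no pair passed. This test cannot go below 0.1 with 3 arrays a group, so that outcome was fixed by the test.

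**Figure D2:**
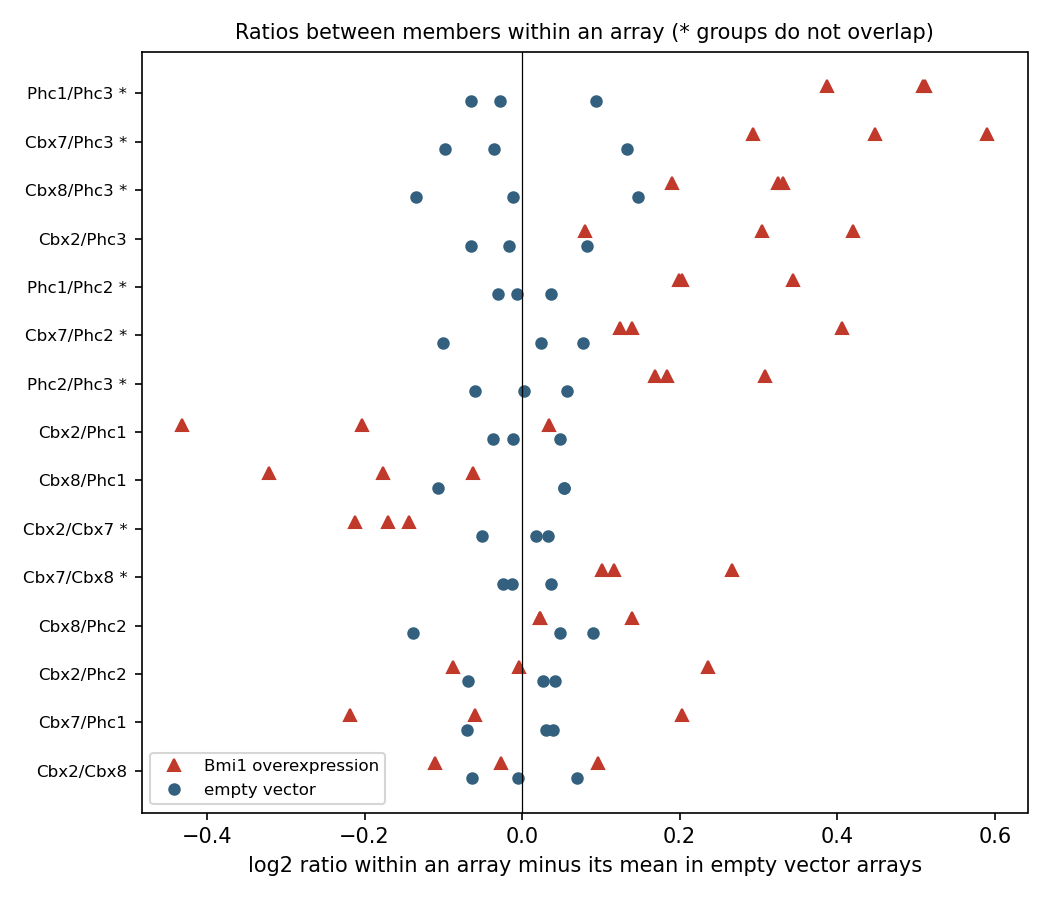
Log2 ratio of 2 members within an array, minus its mean over the empty vector arrays (x axis), for the 15 pairs (y axis), with 1 point per array, triangles for Bmi1 overexpression and circles for empty vector, and an asterisk where the groups do not overlap. With the brighter Phc3 probe set plotted here, Phc1 over Phc3 lies farthest to the right in the Bmi1 arrays, with a difference of 0.47 that was 0.15 with the further Phc3 probe set, and Cbx2 over Cbx8 lies near 0.

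Of the other Polycomb genes listed, 56 of 61 had a probe set of their own, and 1 rose and 0 fell, with 15 at an unadjusted p under 0.05. Beside these counts and those of the single lists below, 2.23% of all probe sets rose, 3.46% fell and 19.9% had an unadjusted p under 0.05 by limma. Their median log2 difference was 0.06, beside 0.02 over all probe sets and 0.07 over the 6 Cbx and Phc members. Of the heterochromatin proteins Cbx1, Cbx3 and Cbx5, which share the chromodomain but are not subunits of canonical PRC1, 0 of 3 passed by limma (1 at an unadjusted p under 0.05). Their log2 differences were 0.17, 0.11 and 0.19.
Of the 8 Ring and Pcgf genes, the catalytic core with which the Cbx and Phc proteins assemble, 0 passed by limma (3 at an unadjusted p under 0.05). These 8, and so the 56, include the overexpressed gene Bmi1 itself. The largest difference among all 56 was that of Pcgf2, which encodes the BMI-1 paralog MEL18 and which was named after its values were seen. It read 5.18, 5.52 and 5.91 with Bmi1, against 4.95, 4.30 and 4.45 with the empty vector. The groups did not overlap and the log2 difference was 0.97 (95% confidence interval 0.40 to 1.54, adjusted p = 0.074 from limma). It passed when the fit was made anew on 1 probe set per gene (adjusted p = 0.016 from limma). It also passed with probe sets of a mean under 5 left out (adjusted p = 0.018 from limma). Its mean over the 6 arrays was 5.05, from 5.54 with Bmi1 and 4.57 with the empty vector. Pcgf2 thus stayed in that fit only through the Bmi1 arrays, and that pass is not independent of its difference. The ligase genes Ring1 and Rnf2 had log2 differences of 0.19 and -0.02.
Of 11 PRC2 genes, which place the mark that the Cbx proteins read, Ezh2 rose, none fell and 10 did not pass. Ezh2, the methyltransferase, read 9.19, 9.27 and 9.26 with Bmi1, against 8.93, 8.80 and 8.73 with the empty vector. All 3 Bmi1 arrays were higher, and the log2 difference of 0.42 (95% confidence interval 0.23 to 0.61), or 1.34-fold, passed (adjusted p = 0.032 from limma). It no longer passed in 5 of the 6 fits that left out 1 array (adjusted p = 0.083 to 0.12 from limma), all but the fit without empty vector replicate 1, nor by the methods' t-test (adjusted p = 0.059 with Benjamini-Hochberg adjustment). Whether Ezh2 differed from the Cbx and Phc members in its response was not tested. Of 19 non-canonical PRC1 subunits, 8 further SAM or MBT domain genes and 7 genes of H2A deubiquitination, 0 passed by limma, with 5, 1 and 1 at an unadjusted p under 0.05.

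**Figure D3:**
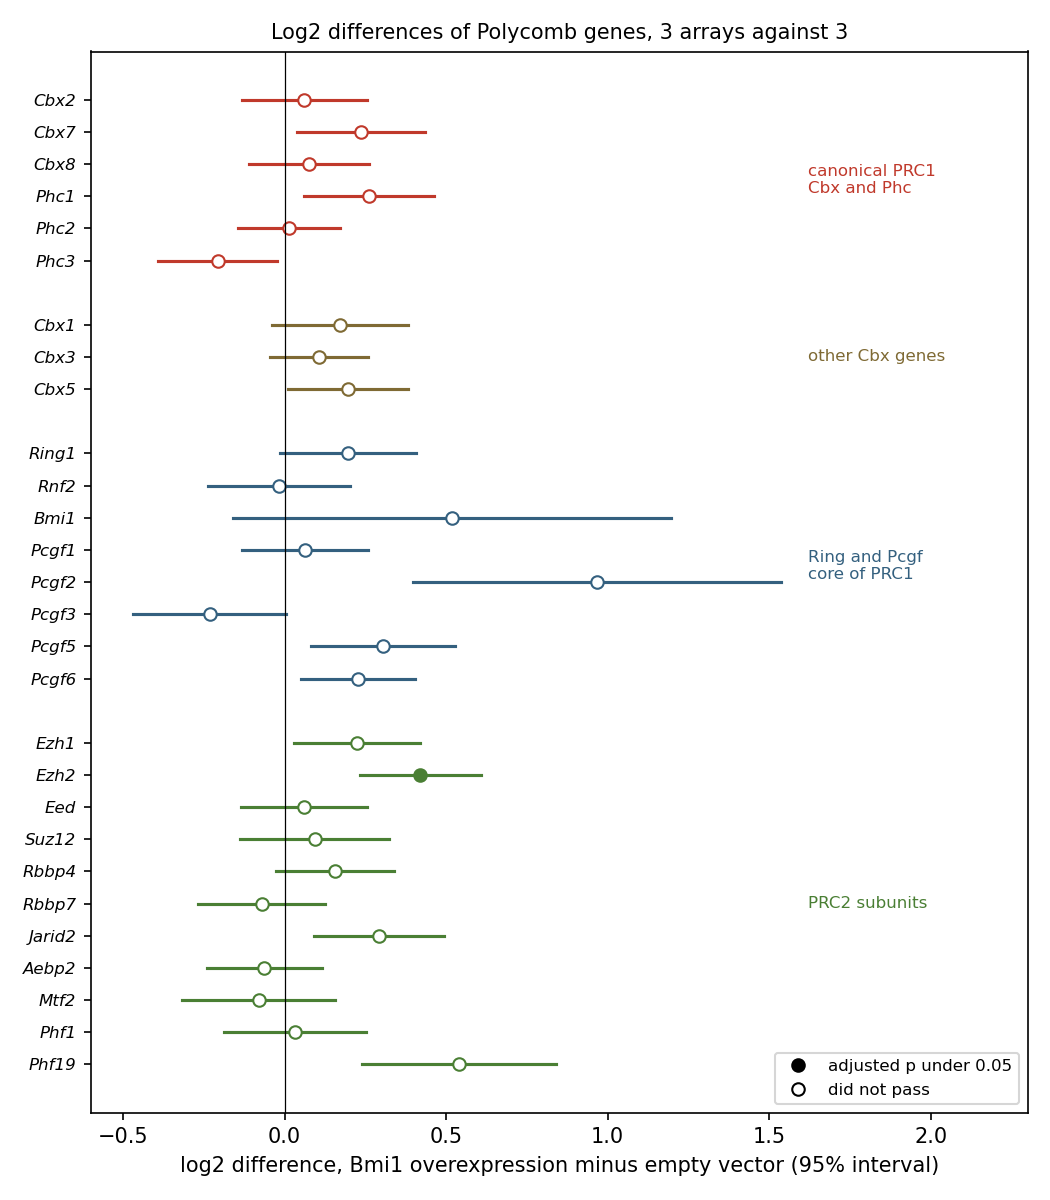
Log2 difference, Bmi1 overexpression minus empty vector (x axis), of the Cbx and Phc members, other Cbx genes, Ring and Pcgf genes and PRC2 genes (y axis), with bars for the 95% confidence interval from limma, filled points for an adjusted p under 0.05 and open points for genes that did not pass. The 6 members lie between -0.21 and 0.26 with open points, and the only filled point is Ezh2 at 0.42.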

How the data were processed

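RNA of 6 neurosphere cultures, 3 with Bmi1 overexpression and 3 with empty vector, was hybridised from 300 ng of total RNA to Mouse Gene ST 1.0 arrays. The deposited values are log2 expression per probe set, made by the authors with RMA (background correction, quantile normalization and probe summary) in Expression Console, both named in the submitters' processing notes. For versions and genome build, nothing is given in the sources used here. RMA compresses changes of dim probe sets, and there are no detection calls.
The platform annotation names 1 gene for 21789 of 35557, several for 1621 and none for 12147. Promoter sequences and gene order came from RefSeq (GRCm38.p6), and 6 of the 7 genes were matched to a promoter.
The comparison used limma 3.58.1 (R 4.3.3, two-sided, no filter) and was tested on simulated data. The methods' t-test, with thresholds of 0.001 for p and 1 for the log2 difference, was an alternative, beside those of the closing section. Pairs of members were compared with scipy 1.17.1, for 15 pairs because Cbx6 has no probe set of its own. Members and lists were chosen with earlier results of these data known. Named were all members, up to 4 called genes per Polycomb list and the check genes. Cbx1, Cbx3, Cbx5, Ring1, Rnf2 and Pcgf2 were added after their values were seen, as were the marker genes. The rule to name genes with a like pattern applied to called members and named none. Figures were drawn with matplotlib 3.10.9. The number of arrays limits the precision.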

Additional observations from a re-analysis of the deposited data

How the results depend on the processing

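The log2 differences of Cbx2, Cbx7, Cbx8 and Phc1 kept their direction under all 14 alternatives. Only median centring, quantile normalization and leaving out 1 array could change them or that of Phc2. Phc3, which its probe sets could also move, kept its direction under 14 of 15. Of these 5 genes only Phc1 ever passed, at 0.26 with probe sets under a mean of 5 left out (1 member rose). Phc2 turned to -0.039 with each array centred on its median (all probe sets then had a median of -0.03 in place of 0.02), and ranged from -0.0068 to 0.049 with 1 array left out, turning without Bmi1 replicate 2 and without Bmi1 replicate 3. Phc3 turned to 0.11 with its further probe set, an alternative chosen after seeing the data, as was counting the shared probe set of Npcd, Cbx6 and Nptxr, which left 0 members called. With 1 array left out, Cbx2 ranged from 0.0033 to 0.11, Cbx7 from 0.18 to 0.27, Cbx8 from 0.01 to 0.11, Phc1 from 0.19 to 0.32 and Phc3 from -0.25 to -0.18. Cbx8 was at 0.01 without empty vector replicate 2. Ezh2 ranged from 0.37 to 0.47 in these fits. The number of pairs without overlap ranged from 8 to 10 with 1 array left out, was 6 with the probe sets of each gene averaged, and was 4 with the further Phc3 probe set, which was also chosen after seeing the data.
Of the other Polycomb genes, 1 rose and 0 fell. The number that rose was 0 with the methods' t-test, with or without its thresholds, 2 with an intensity trend and robust prior, 7 with dim probe sets left out, 3 with 1 probe set per gene, and 0 to 1 with 1 array left out. The 7 include Pcgf2, which stayed in that fit only through its Bmi1 arrays. The number that fell was 2 with median centring and with 1 probe set per gene, and 1 with quantile normalization, with the trend, with dim probe sets left out and with the t-test after Benjamini-Hochberg adjustment.
Of all probe sets, 794 rose and 1231 fell. The t-test after adjustment gave 492 that rose, and at the methods' thresholds 100 that rose and 200 that fell. These last 2 counts equal the numbers of upregulated and downregulated sequences in the paper. The groups taken from the titles thus have the direction of the paper. The trend gave 1303 that rose, and dim probe sets left out gave 1544 that rose and 1880 that fell. With 1 array left out 332 to 455 rose and 642 to 820 fell. Replicate numbers did not pair the arrays (same-numbered deviations correlated at -0.03 to 0.00). With the replicate block 306 rose and 544 fell, 0 other Polycomb genes rose, Ezh2 did not pass (adjusted p = 0.13 from limma), and the members kept their calls. The cause of these changes was not tested.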
